A study of Mus musculus with 27 samples.

Results

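Imprinted genes are expressed mainly from the chromosome of 1 parent. The 46 imprinted genes described here were taken from a fixed list of symbols. No measured value entered the rule, but the list was chosen with earlier results of these data known. All 46 were found among the 53801 genes of the table. Of these, 45 had enough counts for a test of level and 37 had a mean of 20 or more reads per library that could be assigned to an allele. The gene left out of the test of level was Igf2, which had a mean of 0.150 CPM (counts per 1000000 counts of the library) in untreated GFP cells. The others below 20 allelic reads were Cdkn1c, Phlda2, Nnat, Airn, Nap1l5, Magel2, Osbpl5 and Slc22a18.

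Imprints are DNA methylation marks laid down in egg or sperm at control regions, and after fertilisation zinc finger proteins such as ZFP57, with TRIM28 and the maintenance methylase DNMT1, keep them on the marked copy. Each control region acts on a cluster of neighbouring genes, some read from the maternal and some from the paternal copy. Embryonic stem cells can lose imprints in culture, particularly in medium with the kinase inhibitor pair known as 2i, and then read both copies of such genes.

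The RNA came from TX1072 mouse embryonic stem cells, an F1 line of the cross BL/6J x CAST-EiJ, which grew in serum with 2i and LIF. In these cells doxycycline switches on Xist, the RNA that silences an X chromosome, and SPEN, a repressor that binds Xist RNA, carries a degron through which auxin depletes it. Both lines were derived in this Spen-degron background: the GFP line expresses BglG-GFP, and the SPOC line expresses BglG-GFP-SPOC, the same protein with SPEN's SPOC domain added. The study asked what this domain does for X inactivation when SPEN is depleted. The 3 groups of each line were untreated cells, cells with 24 h of doxycycline at 1 ug/mL (Dox), and cells that had 12 h of auxin before 24 h of both agents (Dox+Auxin). Each GFP group had 4 libraries and each SPOC group had 5. Dox+Auxin set against Dox is called the auxin comparison below.

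No group received auxin alone, so auxin, SPEN depletion and the longer treatment cannot be told apart in it. Each construct was studied in 1 line, so the construct and the line cannot be told apart either. All libraries come from the same F1 line and the labels do not say which strain was the mother, so parent of origin and strain cannot be told apart. In bulk RNA, fewer cells expressing a gene and less RNA per cell cannot be told apart.

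Libraries held 28936459 to 45489094 counts, and 34.1 to 35.0% of them were also assigned to BL/6J (BL6) or CAST-EiJ (CAST). Allelic and total columns that share a name did not match: none of the 27 allelic pairs stayed at or below the total column of the same name in all genes, and 1303 to 5292 genes exceeded it. Each pair stayed at or below exactly 1 other total column, and was assigned to that library. With this assignment the CAST share of Xist reads in the Dox and Dox+Auxin libraries was 0.474 to 1.21%, whereas by the column names it reached 83.3%. All allelic results below rest on this assignment. Xist was at 1.01 to 1.67 CPM in 4 untreated SPOC libraries and at 179 CPM in the library labelled untreated replicate 2, so that library stands apart. The degron acts on protein, which was not measured. Spen RNA was higher with Dox+Auxin than with Dox, by 2.13 (SE 0.12, adjusted p = 4.43e-12) on the log2 scale in GFP cells and 1.58 (SE 0.11, adjusted p = 3.01e-10) in SPOC cells (edgeR). It was already higher in SPOC than in GFP cells by 0.98 (adjusted p = 4.08e-05) untreated and by 0.84 (adjusted p = 6.04e-05) with Dox (edgeR). Whether reads of the SPOC construct were counted as Spen was not tested. The 8 embryonic stem cell markers were all above 1 CPM in each group, with a sum of 5073 to 5900 CPM. Of 6 fibroblast feeder markers, 4 were at 1 CPM or more in each group, with a sum over all 6 of 27.1 to 40.3 CPM, and Col3a1 and Postn were below 1 CPM.

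Most of the imprinted genes were read from both alleles at similar levels in these cells. The share of allelic reads from the CAST allele (CAST share) had a median of 50.4% over the 37 genes in untreated GFP cells, beside 49.6% over 12287 autosomal genes with as many reads. It lay between 40 and 60% for 23 of the 37 genes (62.2%), against 69.4% of autosomal genes. The 7 genes known for maternal expression had a median of 52.5% (42.7 to 79.8%), and 4 of them lay between 40 and 60%. The 19 known for paternal expression had a median of 47.4% (28.6 to 90.5%), with 10 between these bounds. The 11 imprinted in some tissues or isoforms had a median of 50.5% (44.7 to 84.5%), with 9 between them. Several textbook imprinted genes were near balance. Snrpn, a splicing protein gene of the Prader-Willi region, was at 46.7% ± 0.762 (SD, n = 4). Igf2r, the receptor that clears IGF2, was at 52.5% ± 1.29 (SD, n = 4). Mest, a hydrolase gene of the mesoderm, was at 53.5% ± 1.76 (SD, n = 4), and Zdbf2, a zinc finger gene, at 49.3% ± 0.956 (SD, n = 4). The amino acid transporter Slc38a4 was at 53.3% ± 0.238 (SD, n = 4) and the retrotransposon-derived Peg10 at 44.7% ± 0.852 (SD, n = 4). Kcnq1ot1, the antisense RNA that silences its cluster in cis, was at 45.8% ± 2.00 (SD, n = 4), although its reads overlap those of Kcnq1.

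**Figure D1:**
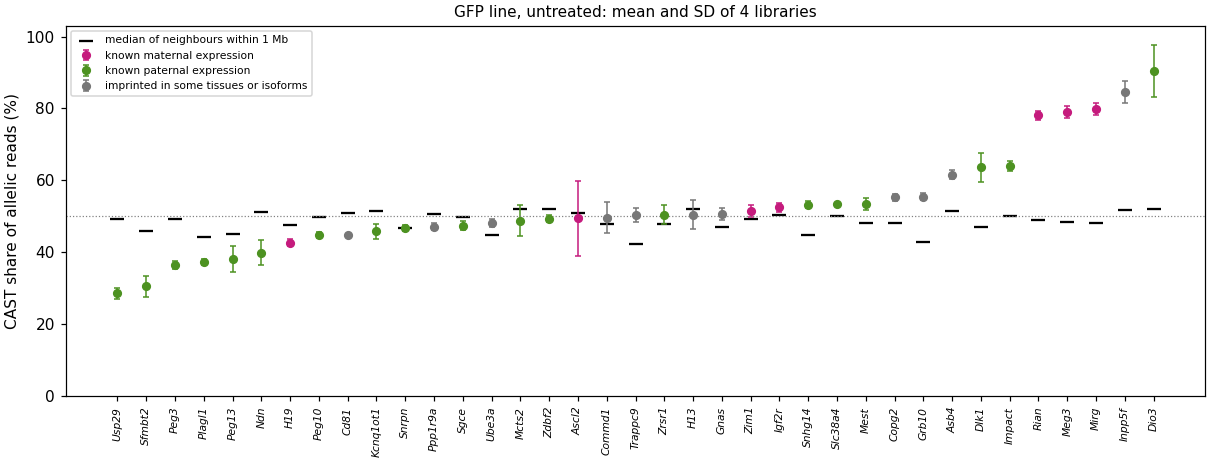
CAST share of allelic reads (percent, vertical axis) of the 37 imprinted genes with 20 or more allelic reads per library in untreated GFP cells, as mean and SD of 4 libraries, ordered by share. Black dashes give the median of the other genes within 1 Mb; Rian, Meg3, Mirg, Inpp5f and Dio3 sit far above the neighbours' medians and Usp29 and Sfmbt2 below them.

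A strong skew was present at 6 genes. Dio3, Inpp5f, Meg3, Mirg, Rian and Usp29 had a CAST share at or above 80% or at or below 20% in the mean of at least 1 group. This is 6 of 37 genes, and 9.12% of autosomal genes met the same bounds. They included 4 of the 5 listed genes of the Dlk1-Dio3 cluster. That cluster, on chromosome 12, holds the paternally expressed protein genes Dlk1 and Dio3 and the maternally expressed non-coding RNAs Meg3, Rian and Mirg, of which Rian and Mirg carry small nucleolar RNAs and microRNAs.

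The upstream promoter window of Meg3, which lies at a region methylated on the paternal copy, is shown because Meg3 and the RNAs downstream of it shifted in allelic ratio with auxin in both lines. The window runs from 250 bases before to 50 bases after the start in RefSeq (GRCm38.p6, plus strand, chr12:109540746-109541045). Capitals mark CpG dinucleotides, where the methylation of imprints is placed.
Meg3: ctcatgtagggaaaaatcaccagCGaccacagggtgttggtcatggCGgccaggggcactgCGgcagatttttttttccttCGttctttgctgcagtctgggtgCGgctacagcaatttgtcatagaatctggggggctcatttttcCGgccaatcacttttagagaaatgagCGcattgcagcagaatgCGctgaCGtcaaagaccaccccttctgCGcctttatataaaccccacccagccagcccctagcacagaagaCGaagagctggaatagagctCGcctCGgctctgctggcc
This window holds 13 CpG, against a median of 7 over 32851 promoter windows. It also holds 1 match, starting at base 61, to TGCCGC, the motif of ZFP57, searched on both strands. RefSeq gives Meg3 a second window downstream (chr12:109545148-109545447), with 1 CpG and 0 matches. The motif occurs in 11.6% of all windows and in 15 of 61 windows of the 39 imprinted genes with an entry. A match is a description of the letters and not a site of binding.

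Meg3, Rian and Mirg were read mostly from the CAST allele, and with auxin the BL6 allele took a larger share in both lines. The CAST share of Rian in GFP cells was 76.7, 79.7, 78.5 and 77.5% untreated, 78.0, 80.1, 79.6 and 79.0% with Dox, and 68.1, 71.8, 69.5 and 67.8% with Dox+Auxin. SPOC values were 80.4, 80.5, 80.2, 81.7 and 82.5% untreated, 81.3, 82.6, 81.3, 80.1 and 82.1% with Dox, and 73.6, 74.2, 72.5, 72.3 and 75.3% with Dox+Auxin. All Dox+Auxin libraries lay below all libraries of the other groups of their line. Neighbouring genes within 1 Mb had a median of 49.0% in untreated GFP cells. Rian overlaps 19 other annotated genes, Mirg 15 and Meg3 5, so reads of those genes could be counted as theirs.

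For Meg3 the CAST share in GFP cells was 77.0, 80.9, 79.9 and 78.3% untreated, 78.4, 78.8, 76.3 and 80.8% with Dox and 67.0, 69.0, 71.3 and 66.4% with Dox+Auxin. The SPOC line had 83.5, 80.4, 81.1, 82.8 and 85.8% untreated, 84.2, 81.6, 82.1, 80.8 and 82.2% with Dox and 71.4, 75.9, 73.9, 73.3 and 72.9% with Dox+Auxin. Again the Dox+Auxin libraries did not overlap the other groups. The share of Mirg in GFP cells was 78.1, 79.6, 82.0 and 79.4% untreated, 82.1, 82.6, 80 and 82.7% with Dox and 68.5, 72.1, 69.6 and 69.2% with Dox+Auxin. The SPOC line had 82.7, 79.8, 73.6, 78.5 and 80.2% untreated, 78.0, 81.8, 77.3, 84.3 and 83.1% with Dox and 75.0, 76.3, 70.3, 69.8 and 78.8% with Dox+Auxin, and here the groups overlapped.

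In the test of the allelic ratio (edgeR, log2 of BL6 over CAST, adjusted over 12754 genes), 8 of 37 imprinted genes passed in the auxin comparison of GFP cells (21.6%, against 10.9% of all genes tested), and 6 of 37 in that of SPOC cells (16.2%, against 4.91%). With the allelic columns taken by their deposited names, 0 passed in either by edgeR. Those toward BL6 in both lines were Usp29, Meg3, Rian and Mirg, with Impact in GFP cells, and those toward CAST were Peg3 and Plagl1, with Cd81 in GFP cells. The ratio of Rian changed by 0.76 (SE 0.061, adjusted p = 3.46e-10) in GFP cells and 0.67 (SE 0.064, adjusted p = 6.09e-08) in SPOC cells. That of Meg3 changed by 0.74 (SE 0.10, adjusted p = 9.30e-10) and 0.73 (SE 0.11, adjusted p = 4.62e-08). For Mirg the values were 0.95 (SE 0.17, adjusted p = 2.91e-06) and 0.58 (SE 0.17, adjusted p = 0.0183). The Mirg call in SPOC cells was lost without Dox replicate 2, 4 or 5 or Dox+Auxin replicate 3 or 4, with an adjusted p of up to 0.0901. Whether the shifts differ between the lines was not tested.

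The BL6 allele carried most of this change. The CPM of BL6 reads of Rian (BL6 reads over the library's total counts) were 23.6, 18.7, 22.1 and 24.5 with Dox and 43.5, 33.3, 40.5 and 42.9 with Dox+Auxin in GFP cells, and 14.4, 12.9, 16.7, 14.2 and 14.8 against 25.9, 25.9, 33.0, 26.4 and 24.3 in SPOC cells. The CPM of CAST reads were 83.5, 75.3, 86.1 and 92.0 with Dox and 92.8, 84.8, 92.3 and 90.2 with Dox+Auxin in GFP cells, and 62.9, 61.2, 72.4, 57.4 and 67.7 against 72.3, 74.5, 87.1, 69.0 and 73.7 in SPOC cells. BL6 values did not overlap between these groups in either line, and CAST values did.

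A test of each allele's own level, added after the shares had been seen, gave 0.83 (SE 0.11, adjusted p = 3.13e-06) for BL6 Rian in GFP cells and 0.88 (SE 0.11, adjusted p = 2.30e-06) in SPOC cells (log2, edgeR). The CAST allele gave 0.070 (SE 0.079, adjusted p = 0.517) and 0.22 (SE 0.072, adjusted p = 0.0318); the call in SPOC cells was lost without Dox replicate 1, 2 or 4 or Dox+Auxin replicate 3 (adjusted p up to 0.0941). BL6 Meg3 rose by 0.84 (SE 0.15, adjusted p = 3.37e-05) in GFP cells and 0.90 (SE 0.15, adjusted p = 4.08e-05) in SPOC cells. CAST Meg3 gave 0.10 (SE 0.15, adjusted p = 0.638) and 0.17 (SE 0.14, adjusted p = 0.426), neither past the threshold. BL6 Mirg rose by 1.23 (SE 0.18, adjusted p = 3.13e-07) and 0.93 (SE 0.17, adjusted p = 5.90e-05). CAST Mirg rose by 0.28 (SE 0.10, adjusted p = 0.0263) and 0.35 (SE 0.10, adjusted p = 0.0068), and its GFP call was lost without Dox replicate 1 or 2 or Dox+Auxin replicate 2 or 3 (adjusted p up to 0.147). Over the 37 genes, the BL6 level passed for 19 in GFP cells and 16 in SPOC cells, where 41.5% and 24.1% of all genes did. The CAST level passed for 14 genes in each line, beside 39.5% and 22.5% of all genes.

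The paternally expressed genes lie at the ends of the cluster. Dio3, the deiodinase that inactivates thyroid hormone, was also skewed to CAST, with group means of 87.4 to 92.7%. It had a mean of only 22.4 allelic reads per library. The share of CAST reads was 94.1, 91.7, 80 and 96.2% in untreated GFP, 92.3, 93.1, 94.9 and 90.5% in GFP Dox and 100, 80, 87.5 and 85.7% in GFP Dox+Auxin libraries. SPOC libraries had 85.0, 90, 73.3, 94.3 and 94.3% untreated, 93.1, 82.5, 100, 85.7 and 94.6% with Dox and 80, 100, 87.5, 92.3 and 91.3% with Dox+Auxin. All groups overlapped, and no ratio comparison passed. Dlk1, a membrane ligand related to those of Notch, had 63.6% ± 3.97 (SD, n = 4) in untreated GFP cells and 66.5% ± 3.57 (SD, n = 5) in untreated SPOC cells. With Dox+Auxin it had 59.9% ± 2.78 (SD, n = 4) and 61.5% ± 3.22 (SD, n = 5), and the ratio did not pass against Dox (adjusted p = 0.215 and 0.436). The 5 genes of the cluster, of both parental classes, all had means above 50% CAST in each group.

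**Figure D2:**
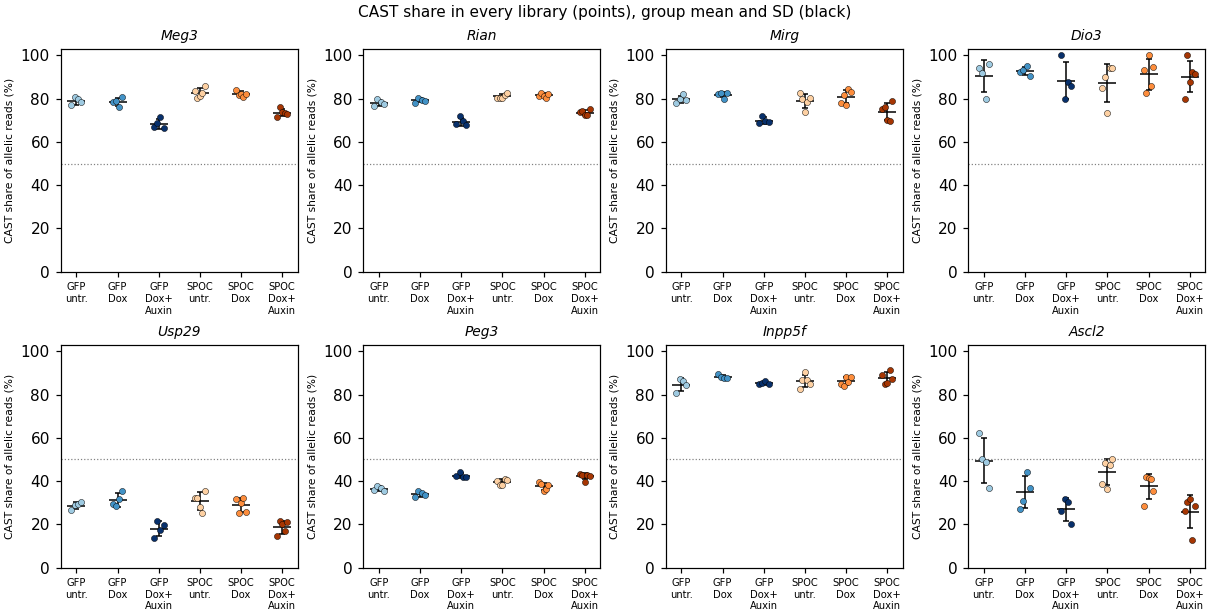
CAST share of allelic reads (percent, vertical axis) of 8 imprinted genes in every library, by line and treatment; points are libraries, black bars group means and SD, and the dotted line is 50%. With Dox+Auxin the share of Meg3, Rian, Mirg and Usp29 is lower and that of Peg3 higher than with Dox in both lines, while Inpp5f stays between 80.5 and 91.2%.

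In the Peg3 domain on chromosome 7, a pair of neighbouring paternally expressed genes had BL6 alleles that moved in opposite directions. Peg3 encodes a large zinc finger protein and Usp29 a ubiquitin protease, and they start head to head from 1 CpG-rich region. Their RefSeq windows (GRCm38.p6) overlap by 263 bases, which is why the window of Peg3 (minus strand, chr7:6730370-6730669) is shown for both. Capitals again mark CpG.
Peg3: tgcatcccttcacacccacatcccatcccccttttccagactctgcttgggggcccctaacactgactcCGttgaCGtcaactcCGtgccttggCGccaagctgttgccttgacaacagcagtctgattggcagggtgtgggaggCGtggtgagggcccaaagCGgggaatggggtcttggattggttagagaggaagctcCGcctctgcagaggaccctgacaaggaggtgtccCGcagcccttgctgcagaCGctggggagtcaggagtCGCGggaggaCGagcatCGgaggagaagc
It holds 13 CpG and no match to TGCCGC on either strand, which says only that these letters are not in the window.

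The CAST share of Usp29 in GFP cells was 26.5, 28.7, 29.2 and 30.1% untreated, 29.4, 28.5, 31.8 and 35.4% with Dox and 13.7, 21.3, 17.4 and 19.7% with Dox+Auxin. Values in SPOC cells were 32.4, 32.2, 28.1, 25.4 and 35.5% untreated, 31.7, 25.0, 29.9, 31.9 and 25.5% with Dox and 14.4, 21.4, 19.9, 16.7 and 21.0% with Dox+Auxin. In both lines the Dox+Auxin libraries were lower than all others. The log2 ratio changed by 1.06 (SE 0.16, adjusted p = 1.02e-08) in the auxin comparison of GFP cells and 0.83 (SE 0.16, adjusted p = 3.32e-05) in SPOC cells. BL6 reads of Usp29 were at 4.08, 4.02, 4.03 and 3.63 CPM with Dox and 8.60, 7.40, 8.13 and 8.18 with Dox+Auxin in GFP cells, and 3.93, 4.18, 3.15, 3.74 and 3.16 against 7.66, 7.23, 4.80, 6.78 and 5.35 in SPOC cells. These values did not overlap. CAST reads were at 1.79 ± 0.176 and 1.77 ± 0.304 CPM in GFP cells, and 1.48 ± 0.307 and 1.45 ± 0.306 in SPOC cells (mean and SD). The level of the BL6 allele rose by 1.01 (SE 0.11, adjusted p = 7.10e-10) and 0.80 (SE 0.10, adjusted p = 1.68e-07). For the CAST allele the values were -0.047 (SE 0.16, adjusted p = 0.849) and -0.031 (SE 0.15, adjusted p = 0.919). The gene overlaps 10 other annotated genes, so reads of these could be counted in it, since whether counting used strand is not stated.

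For Peg3 the share moved the other way. It was 36.0, 37.8, 37.0 and 35.4% untreated, 32.7, 35.4, 34.3 and 33.5% with Dox and 42.2, 44.2, 41.8 and 42.0% with Dox+Auxin in GFP cells. SPOC libraries had 40.1, 38.2, 38.0, 41.0 and 40.4% untreated, 39.4, 38.6, 35.6, 36.2 and 38.1% with Dox and 43.1, 42.7, 39.7, 43.0 and 42.2% with Dox+Auxin. Dox+Auxin libraries were above all Dox libraries of their line. The log2 ratio changed by -0.52 (SE 0.052, adjusted p = 1.41e-08) in GFP cells and -0.28 (SE 0.050, adjusted p = 0.00042) in SPOC cells. BL6 Peg3 fell, with a change of -0.51 (SE 0.085, adjusted p = 3.82e-05) and -0.29 (SE 0.077, adjusted p = 0.00677), from a mean of 87.2 to 62.4 CPM and from 68.9 to 56.6. CAST Peg3 had 44.9 ± 4.05 and 46.2 ± 5.43 CPM in GFP cells and 41.5 ± 4.30 and 41.4 ± 5.69 in SPOC cells, a difference of 0.012 (SE 0.11, adjusted p = 0.948) and -0.014 (SE 0.10, adjusted p = 0.946). Zim1, the maternally expressed zinc finger gene of the domain, had 58.1% ± 6.55 (SD, n = 4) CAST with Dox and 59.9% ± 8.50 (SD, n = 4) with Dox+Auxin in GFP cells, and no call.

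**Figure D3:**
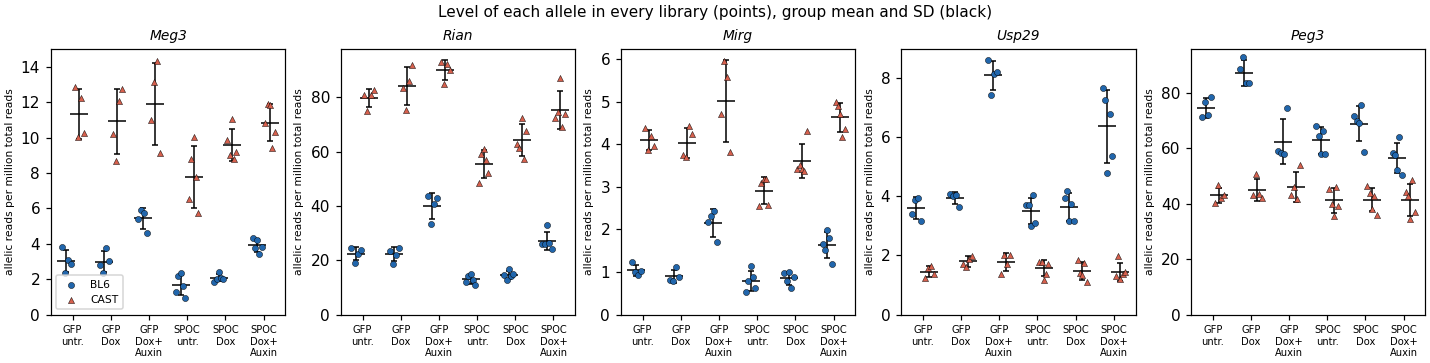
Level of each allele in CPM (vertical axes, each starting at 0) for Meg3, Rian, Mirg, Usp29 and Peg3 in every library; circles are BL6, triangles CAST, black bars group means and SD. From Dox to Dox+Auxin the BL6 points of Rian and Usp29 move up without overlap and those of Peg3 move down, while the CAST points overlap.

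Outside these clusters, Inpp5f and Sfmbt2 were the genes farthest from balance in untreated GFP cells. Inpp5f, an inositol phosphatase with an imprinted isoform, was mostly CAST in all groups, with means of 84.5 to 88.1%, while its 22 neighbours had a median of 51.8% and a range of 7.91 to 74.4%. By library the share was 80.5, 87.4, 86.1 and 84.3% untreated, 89.5, 87.9, 87.5 and 87.6% with Dox and 84.8, 85.1, 86.2 and 84.8% with Dox+Auxin in GFP cells. SPOC libraries had 82.6, 86.7, 90.2, 86.9 and 84.8% untreated, 84.8, 84.0, 88.1, 86.0 and 88.2% with Dox and 89.2, 84.9, 85.2, 91.2 and 87.1% with Dox+Auxin. The groups overlapped and no ratio comparison passed. Sfmbt2, a polycomb-group gene needed in the trophoblast, was mostly BL6, with means of 26.0 to 30.6% CAST and no call. It overlaps 120 annotated genes, so its counts are uncertain. Ndn, a MAGE-family gene of the Prader-Willi region, had 39.8% ± 3.44 (SD, n = 4) and Peg13, a non-coding RNA inside Trappc9, 38.1% ± 3.73 (SD, n = 4) in untreated GFP cells.

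Plagl1, a zinc finger transcription factor, was mostly BL6 and showed a small shift in each direction. Its CAST share in GFP cells was 37.8, 36.1, 37.9 and 37.7% untreated, 34.1, 34.5, 33.0 and 34.8% with Dox and 39.1, 37.5, 39.2 and 38.5% with Dox+Auxin. The Dox libraries were the lowest and did not overlap the other groups. The log2 ratio changed by 0.21 (SE 0.039, adjusted p = 1.91e-05) for Dox against untreated and -0.28 (SE 0.041, adjusted p = 6.24e-09) in the auxin comparison. For SPOC cells the latter was -0.16 (SE 0.037, adjusted p = 0.00105), and Dox against untreated gave 0.10 (SE 0.038, adjusted p = 0.214). Its total level was called in none of the 9 comparisons.

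Plagl1 was the only one of 37 genes called for the ratio with Dox alone in GFP cells (2.7%, against 4.49% of all genes). The count was 2 without SPOC untreated replicate 2, SPOC Dox replicate 1 or 3, SPOC Dox+Auxin replicate 3, GFP Dox replicate 2 or GFP Dox+Auxin replicate 2, and 3 without GFP untreated replicate 4. For SPOC cells Dox alone gave 0 calls of 37 with edgeR, against 3.56% of all genes, with 2 genes at an unadjusted p under 0.05 and 0 calls with limma. Dox+Auxin against untreated gave 7 calls in GFP cells (18.9%, against 5.88%) and 4 in SPOC cells (10.8%, against 4.72%; 5 without SPOC untreated replicate 2). The 7 were Usp29, Ascl2, Meg3, Rian, Mirg and Impact toward BL6, and Peg3 toward CAST. The 4 were Usp29, Meg3, Rian and Impact, all toward BL6.

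Impact, an inhibitor of the GCN2 kinase, had mean shares of 61.6 to 64.7% CAST. For GFP cells it was 62.2, 64.5, 65.5 and 63.7% untreated and 61.6, 61.7, 61.6 and 61.3% with Dox+Auxin, a log2 ratio change of 0.15 (SE 0.034, adjusted p = 0.00113). For SPOC cells the means were 64.7% and 62.7%, a change of 0.12 (SE 0.034, adjusted p = 0.0106) that was lost without SPOC Dox+Auxin replicate 2 (adjusted p = 0.0646). With limma these calls were lost too (adjusted p = 0.0784 and 0.109). In the auxin comparison of GFP cells, from 62.6, 64.7, 63.4 and 63.5% with Dox, the change was 0.12 (SE 0.037, adjusted p = 0.0121), lost without GFP Dox replicate 2 (adjusted p = 0.116) and with limma (adjusted p = 0.104). Ascl2, a trophoblast transcription factor, had 62.2, 50, 49.0 and 36.7% CAST in untreated and 25.9, 31.6, 30.3 and 20% in Dox+Auxin GFP cells, from a mean of 31.1 allelic reads. Its change of 1.32 (SE 0.35, adjusted p = 0.00836) was lost without GFP untreated replicate 1 or GFP Dox+Auxin replicate 4 (adjusted p up to 0.0608). Cd81, a tetraspanin, had 42.6, 43.9, 44.9 and 43.1% with Dox and 45.3, 46.3, 45.2 and 47.0% with Dox+Auxin in GFP cells, a change of -0.13 (SE 0.035, adjusted p = 0.00406).

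The total level of many imprinted genes differed between Dox+Auxin and Dox in both lines. In the auxin comparison of GFP cells 27 of 45 were called (60%, against 47.6% of all 18363 genes tested), 16 up (24.7% of all genes) and 11 down (22.9%). SPOC cells gave 23 of 45 (51.1%, against 32.0%), 15 up (16.6% of all genes) and 8 down (15.4%). The median change over the 45 genes was 0.081 and 0.067 on the log2 scale, beside 0.0038 and -0.0080 over all genes. Of the 45, 21 were called in both lines, each in the same direction, 14 up and 7 down. The share of all genes called in both lines was not counted, so this overlap cannot be set beside it. The lines share no libraries, but they were tested in the same fit with a common estimate of the spread.

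The summed level of some markers of other cell types was also higher with Dox+Auxin than with Dox. The sum of 6 neural markers was 171 to 199 CPM with Dox and 245 to 254 with Dox+Auxin in GFP cells, and 155 to 201 against 214 to 289 in SPOC cells; 2 rose and 2 fell in each line. The sum of 6 trophoblast markers was 79.2 to 82.2 against 165 to 176 CPM in GFP cells and 72.4 to 109 against 104 to 169.9 in SPOC cells, with Elf5 and Hand1 below 1 CPM in each group; 2 rose and 0 fell in each line (edgeR). The 6 primitive endoderm markers summed to 140.2 to 168 against 153 to 207 CPM in GFP cells and 136 to 163 against 168 to 186 in SPOC cells, with Gata6 below 1 CPM in each group. Of these 6, 0 rose and 1 fell in GFP cells (median log2 change 0.24), and 1 rose and 0 fell in SPOC cells (median -0.28). The 5 mesoderm markers summed to 13.5 to 14.6 against 20.6 to 23.2 CPM in GFP cells and 12.3 to 18.9 against 14.7 to 23.2 in SPOC cells, with Mesp1, Mixl1, Kdr and Tbx6 below 1 CPM in each group. Of the 3 tested, 2 rose and 1 fell in GFP cells and 0 were called in SPOC cells (edgeR). The 6 feeder markers summed to 37.0 to 40.3 against 28.8 to 32.5 CPM in GFP cells and 34.0 to 39.1 against 27.1 to 33.7 in SPOC cells. Of the 4 tested, 1 rose and 3 fell in GFP cells, and 0 rose and 1 fell in SPOC cells. Of the 8 embryonic stem cell markers, 1 rose and 6 fell in GFP cells and 1 rose and 5 fell in SPOC cells. The part of these in the changes of imprinted genes was not tested.

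**Figure D4:**
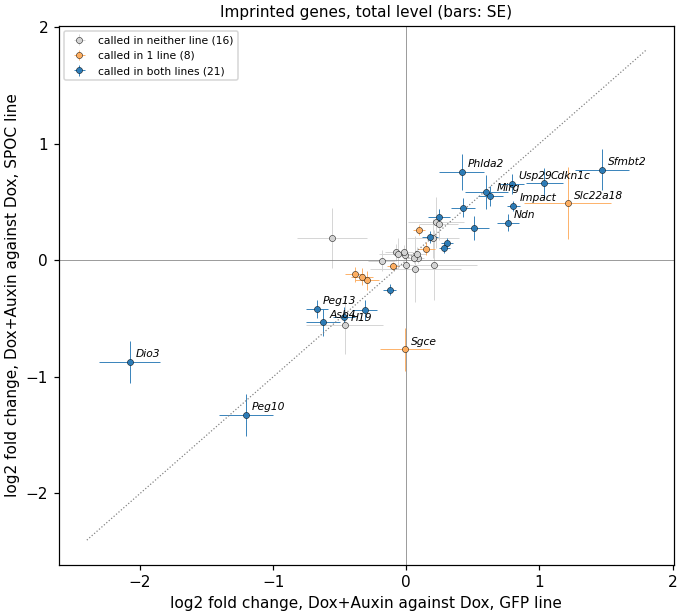
Log2 fold change in total level in the auxin comparison for 45 imprinted genes in GFP cells (horizontal axis) and the SPOC line (vertical axis); bars are SE, colour gives the number of lines in which a gene was called, and the dotted line marks equal change. Dio3 and Peg10 lie lowest in GFP cells and Sfmbt2, Slc22a18 and Cdkn1c highest, and the 21 genes called in both lines lie in the quadrants of equal sign.

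Peg10 fell and was among the most abundant imprinted genes per length. In untreated GFP cells it was at 89.8 CPM per kilobase of exon, with Cd81 at 81.9, Slc38a4 at 78.7, Snrpn at 63.0, Impact at 52.9 and H19 at 40.5. Untreated SPOC cells had another order on this scale, with H19 at 83.5, Slc38a4 at 82.8, Cd81 at 80.9, Peg10 at 76.7, Snrpn at 60.6 and Impact at 53.5. These orders were not tested. Peg10, needed for placental development, was at 649.7, 549.7, 587 and 609.7 CPM untreated, 445, 356, 389.7 and 389 with Dox and 205, 146, 154 and 192 with Dox+Auxin in GFP cells. SPOC values were 631, 514, 489.7, 556 and 365 untreated, 487, 439.8, 412, 471 and 265 with Dox and 194, 169, 166, 206 and 97.8 CPM with Dox+Auxin. In both lines the Dox+Auxin libraries were below all others. The auxin comparison gave -1.20 (SE 0.20, adjusted p = 3.40e-05) in GFP cells and -1.33 (SE 0.18, adjusted p = 6.71e-06) in SPOC cells. Its CAST share with Dox+Auxin was 45.7% ± 1.82 and 47.3% ± 1.46, against 45.4% ± 0.677 and 45.4% ± 1.15 with Dox, with no call in the auxin comparison.

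Neighbours of Peg10 on chromosome 6 were also lower in some comparisons. Sgce encodes epsilon-sarcoglycan and is divergently transcribed beside Peg10. It was at 11.2, 8.40, 9.34 and 8.22 CPM untreated, 6.22, 5.41, 5.83 and 5.25 with Dox and 7.67, 4.41, 5.28 and 5.47 with Dox+Auxin in GFP cells. Dox against untreated gave -0.69 (SE 0.18, adjusted p = 0.00648), and the auxin comparison gave -0.010 (SE 0.19, adjusted p = 0.973). The SPOC line had 7.56, 7.71, 7.88, 6.60 and 4.79 untreated, 5.27, 5.85, 4.69, 5.96 and 3.71 with Dox and 3.89, 3.29, 3.21, 3.14 and 1.52 CPM with Dox+Auxin, and the auxin comparison gave -0.76 (SE 0.19, adjusted p = 0.00247). The difference between the lines in this change did not pass (adjusted p = 0.0814). Asb4, a subunit of ubiquitin ligases, changed by -0.63 (SE 0.13, adjusted p = 0.000159) in GFP cells, with 3.76 to 4.37 CPM in Dox and 2.39 to 3.05 CPM in Dox+Auxin libraries. For SPOC cells it changed by -0.53 (SE 0.11, adjusted p = 0.000477), with 3.38 to 4.99 against 2.66 to 3.89 CPM, with overlap between the groups. Ppp1r9a, a neuronal actin-binding protein, changed by -0.31 (adjusted p = 0.00776) and -0.43 (adjusted p = 0.000375).

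Of the imprinted genes that fell in GFP cells, Dio3 changed most. It was at 5.12, 4.73, 6.13 and 6.27 CPM untreated, 9.42, 8.39, 9.26 and 8.88 with Dox and 1.98, 2.17, 2.37 and 2.14 with Dox+Auxin. Values in SPOC cells were 7.56, 10.2, 5.91, 10.8 and 10.3 untreated, 12.5, 11.1, 8.33, 13.2 and 13.4 with Dox and 5.29, 5.49, 4.09, 7.40 and 9.93 CPM with Dox+Auxin. The groups did not overlap in GFP cells and overlapped in SPOC cells, where each Dox+Auxin library was below the same-numbered Dox library. The auxin comparison gave -2.08 (SE 0.23, adjusted p = 6.73e-08) and -0.87 (SE 0.18, adjusted p = 0.000554). The test of the difference between these changes, SPOC minus GFP, gave 1.21 (SE 0.30, adjusted p = 0.0129).

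**Figure D5:**
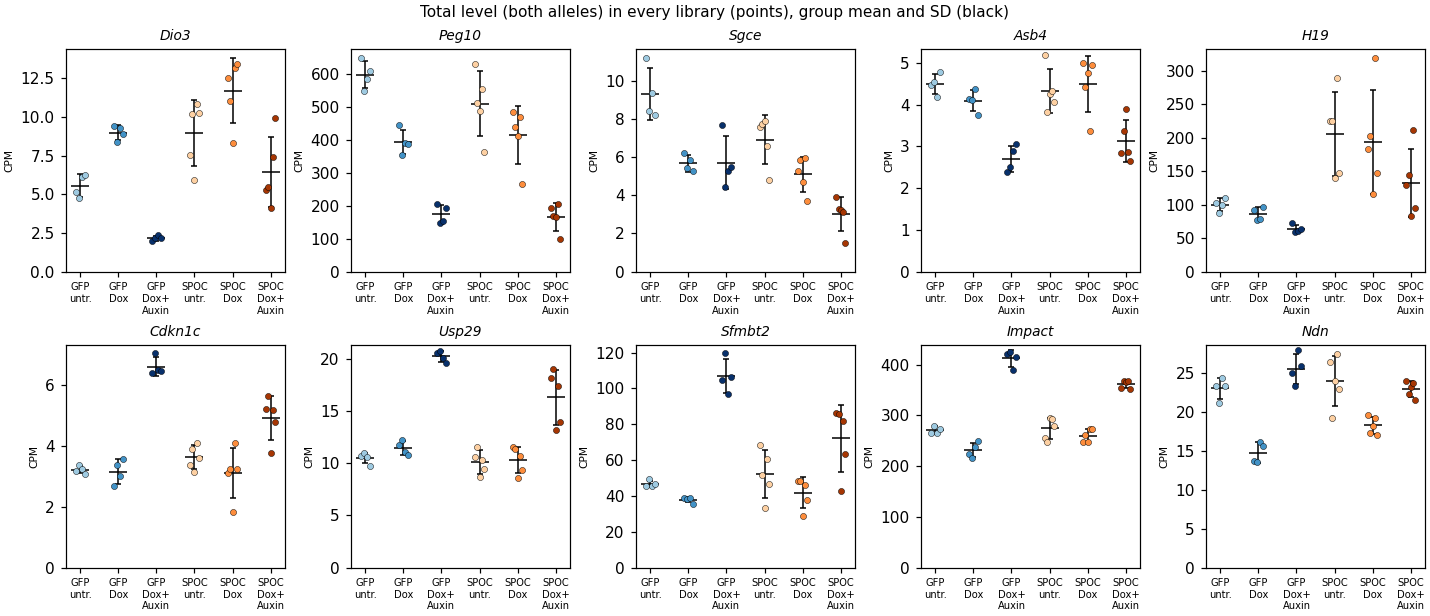
Total level (CPM, vertical axes starting at 0) of 10 imprinted genes in every library, by line and treatment; points are libraries and black bars group means and SD. Dio3, Peg10 and Asb4 are lower and Cdkn1c, Usp29, Sfmbt2, Impact and Ndn higher with Dox+Auxin than with Dox in both lines, and H19 is higher in SPOC cells.

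Ascl2 changed by -0.47 (SE 0.084, adjusted p = 2.60e-05) and -0.49 (SE 0.083, adjusted p = 3.58e-05), from means of 10.6 to 7.85 and 6.33 to 4.55 CPM. Peg13 changed by -0.67 (adjusted p = 1.11e-07) and -0.42 (adjusted p = 6.21e-05), and Trappc9, which contains it, rose by 0.17 (adjusted p = 0.0172) and 0.20 (adjusted p = 0.0048). The Trappc9 call in GFP cells was lost without GFP Dox replicate 4 or GFP Dox+Auxin replicate 1 (adjusted p up to 0.0755). Gnas, the stimulatory G protein subunit, changed by -0.13 (adjusted p = 0.0379) and -0.25 (adjusted p = 6.22e-05), the first lost without GFP Dox replicate 1, 2 or 3 or GFP Dox+Auxin replicate 2 or 4 (adjusted p up to 0.146). Peg3 changed by -0.29 (adjusted p = 0.0103) in GFP cells and gave -0.17 (adjusted p = 0.115) in SPOC cells. Grb10, an adaptor that dampens insulin signalling, changed by -0.34 (adjusted p = 0.00161) in GFP cells, and Mcts2, a retrogene inside H13, by -0.39 (adjusted p = 2.60e-05). For SPOC cells they gave -0.14 (adjusted p = 0.162) and -0.12 (adjusted p = 0.14).

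Cdkn1c and Phlda2 are maternally expressed neighbours in the Kcnq1 cluster. Cdkn1c, which encodes the cell cycle inhibitor p57, was at 3.17, 3.36, 3.25 and 3.10 CPM untreated, 2.67, 3.39, 3.01 and 3.57 with Dox and 6.41, 7.07, 6.51 and 6.49 with Dox+Auxin in GFP cells. SPOC libraries had 3.37, 3.92, 3.14, 4.11 and 3.61 untreated, 3.10, 3.26, 1.83, 4.11 and 3.25 with Dox and 5.23, 5.66, 3.78, 5.18 and 4.79 CPM with Dox+Auxin. In GFP cells the Dox+Auxin libraries were above those of the other groups, which overlapped each other. In SPOC cells Dox+Auxin overlapped the other groups through its replicate 3, and each Dox+Auxin library was above the same-numbered Dox library. The change against Dox was 1.04 (SE 0.14, adjusted p = 2.70e-07) and 0.66 (SE 0.13, adjusted p = 0.000176). Phlda2, which limits placental growth, rose by 0.76 (SE 0.15, adjusted p = 0.000264) in SPOC cells, with 1.57 to 3.01 CPM in Dox and 2.72 to 4.89 CPM in Dox+Auxin libraries. For GFP cells it gave 0.41 (SE 0.17, adjusted p = 0.0474), a call lost when any 1 of 14 of the 27 libraries was left out (adjusted p up to 0.133). Slc22a18, a transporter gene of the same cluster, rose by 1.21 (adjusted p = 0.00257) in GFP cells, from 0.224 ± 0.0665 to 0.540 ± 0.114 CPM, and gave 0.49 (adjusted p = 0.242) in SPOC cells. Osbpl5, a lipid transfer protein gene there, gave 0.22 (adjusted p = 0.407) and 0.32 (adjusted p = 0.276).

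Sfmbt2 was at 45.7, 49.4, 45.7 and 46.5 CPM untreated, 38.7, 38.1, 38.9 and 35.7 with Dox and 105, 119.8, 96.7 and 107 with Dox+Auxin in GFP cells. SPOC values were 68.7, 51.8, 33.5, 60.6 and 46.7 untreated, 48.2, 48.3, 28.7, 46.3 and 37.5 with Dox and 86.3, 85.9, 42.5, 82.0 and 63.6 CPM with Dox+Auxin. Replicate 3 was the lowest SPOC library in each treatment, and the SPOC Dox+Auxin libraries overlapped those of the other groups. Each SPOC Dox+Auxin library was above the same-numbered Dox library. The change against Dox was 1.47 (SE 0.20, adjusted p = 2.60e-06) and 0.78 (SE 0.18, adjusted p = 0.00193). Usp29 rose by 0.79 (SE 0.093, adjusted p = 2.65e-08) and 0.65 (SE 0.086, adjusted p = 6.11e-07), from means of 11.4 to 20.2 and 10.3 to 16.3 CPM.

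Impact was at 224, 217, 239 and 248 CPM with Dox and 421, 425, 389 and 415 with Dox+Auxin in GFP cells, and at 247, 261, 247, 273 and 273 and 353, 367, 365, 368 and 353 in SPOC cells. The groups did not overlap, and the rise was 0.80 (SE 0.049, adjusted p = 8.58e-14) and 0.46 (SE 0.044, adjusted p = 2.28e-09). Ndn was at 23.3, 21.2, 24.4 and 23.4 CPM untreated, 13.8, 13.6, 16.1 and 15.7 with Dox and 25.0, 23.3, 27.9 and 25.9 with Dox+Auxin in GFP cells. It was lower with Dox alone than in the other groups, without overlap. The SPOC line had 26.4, 19.3, 24.0, 27.4 and 22.9 untreated, 19.6, 17.3, 18.2, 19.2 and 17.1 with Dox and 24.0, 22.3, 23.2, 23.7 and 21.5 CPM with Dox+Auxin. Dox against untreated gave -0.63 (SE 0.081, adjusted p = 6.20e-07) and -0.40 (SE 0.073, adjusted p = 0.000198), and the auxin comparison gave 0.76 (SE 0.081, adjusted p = 4.43e-09) and 0.32 (SE 0.072, adjusted p = 0.00097). Others of its region also rose with Dox+Auxin: Snrpn by 0.31 (adjusted p = 1.07e-06) and 0.15 (adjusted p = 0.00408), and the neighbouring transcript Snhg14 by 0.51 (adjusted p = 0.000796) and 0.28 (adjusted p = 0.043). The last was lost without SPOC Dox replicate 3, 4 or 5 or SPOC Dox+Auxin replicate 1, 2 or 3 (adjusted p up to 0.120).

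In the Dlk1-Dio3 cluster the total level of Mirg rose by 0.63 (SE 0.093, adjusted p = 1.48e-06) and 0.55 (SE 0.085, adjusted p = 8.37e-06), and that of Dlk1 by 0.43 (SE 0.088, adjusted p = 0.000167) and 0.45 (SE 0.081, adjusted p = 7.22e-05). Rian rose by 0.25 (SE 0.081, adjusted p = 0.0147) in GFP cells, lost without GFP Dox replicate 2 (adjusted p = 0.0648), and by 0.37 (SE 0.073, adjusted p = 0.000405) in SPOC cells. Meg3 gave 0.24 (SE 0.15, adjusted p = 0.195) and 0.31 (SE 0.14, adjusted p = 0.0886), so in the auxin comparison its shift in allelic ratio came without a called change in total level. Nap1l5, a nucleosome assembly gene near 1 CPM, rose by 0.60 (adjusted p = 0.00249) and 0.59 (adjusted p = 0.00228), and Zrsr1, a splicing factor retrogene, by 0.26 (adjusted p = 1.19e-05) in SPOC cells, with 0.10 (adjusted p = 0.0866) in GFP cells. The remaining calls were H13, a signal peptide peptidase, with 0.15 (adjusted p = 0.0487) and Copg2 with -0.10 (adjusted p = 0.0377) in GFP cells, and Cd81 in both, with 0.29 (adjusted p = 2.61e-06) and 0.10 (adjusted p = 0.0422). The H13 call was lost when any 1 of 14 libraries was left out (adjusted p up to 0.147). The Copg2 call was lost without GFP Dox replicate 1, 2 or 3 or GFP Dox+Auxin replicate 2 or 3 (adjusted p up to 0.141), and the SPOC call of Cd81 without SPOC Dox replicate 1, 2 or 4 or SPOC Dox+Auxin replicate 3 or 5 (adjusted p up to 0.154).

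The size of this change differed between the lines for 4 of 45 genes (8.89%, against 8.14% of all genes): Dio3, Impact, Ndn and Cd81. The count was 7 without SPOC Dox replicate 3. Their call held without any 1 library except for Cd81, lost without any 1 of 18 of the 27 (adjusted p up to 0.0965). SPOC minus GFP, the difference was -0.34 (SE 0.066, adjusted p = 0.00151) for Impact and -0.44 (SE 0.11, adjusted p = 0.00981) for Ndn. Against untreated, Dox+Auxin gave 26 calls of 45 in GFP cells (57.8%, against 38.2%), 16 up (19.9% of all genes) and 10 down (18.4%). SPOC cells gave 23 (51.1%, against 33.3%), 14 up (16.7%) and 9 down (16.6%), and 21 without the SPOC untreated library that stands apart. The change of Peg10 against untreated was -1.79 (SE 0.20, adjusted p = 3.92e-07) in GFP and -1.64 (SE 0.18, adjusted p = 4.48e-07) in SPOC cells, and that of Usp29 0.93 (SE 0.093, adjusted p = 2.58e-09) and 0.67 (SE 0.086, adjusted p = 4.42e-07). Meg3 was called up against untreated in SPOC cells, also without any 1 library (log2 0.45 to 0.65), and was not called in GFP cells.

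With Dox alone, in GFP cells 8 of 45 were called (17.8%, against 20.9% of all genes), with Mest, Zim1, Ascl2 and Dio3 up (4, where 10.1% of all genes rose) and Sgce, Peg10, Ndn and Impact down (4, where 10.8% fell). The call of Dio3 was lost without GFP untreated replicate 2 (adjusted p = 0.0523), that of Ascl2 without GFP untreated replicate 2 or 4 or GFP Dox replicate 1, 2 or 3 (up to 0.142), and that of Peg10 without GFP untreated replicate 1, 3 or 4 or GFP Dox replicate 2, 3 or 4 (up to 0.0901). That of Zim1 was lost without GFP untreated replicate 1 or 2 or GFP Dox replicate 3 or 4 (up to 0.134). The count was 5 without GFP untreated replicate 2 or GFP Dox replicate 3. Mest rose by 0.41 (SE 0.079, adjusted p = 0.000443), and Impact changed by -0.21 (SE 0.049, adjusted p = 0.00209). SPOC cells gave 2 of 45 (4.44%, against 13.5%), Ndn and Gnas, both down (7.33% of all genes fell and 6.16% rose). The count was 4 without SPOC untreated replicate 2 or SPOC Dox replicate 3, and 1 without SPOC untreated replicate 3, when Gnas was lost (adjusted p = 0.0626). The DESeq2 Wald test called 5. With a replicate block more levels were called for Dox alone in both lines. The same held between the lines untreated and with Dox, and for the interaction (counts in the part on processing below). The shares of all genes called with the block are not given. Whether imprinted genes responded to Dox alone less often than all genes is therefore not known.

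The lines differed in each treatment at H19, the growth-restraining non-coding RNA of the H19/Igf2 cluster. It was at 102, 87.1, 99.3 and 110.3 CPM in untreated GFP cells and 225, 225, 140.4, 289.7 and 147 in untreated SPOC cells. With Dox the values were 92.7, 77.5, 79.3 and 97.1 against 184, 203, 116, 319.7 and 148 CPM, and with Dox+Auxin 72.6, 59.3, 60.02 and 63.9 against 129, 144, 83.5, 212 and 95.0. In both lines each Dox+Auxin library was below the same-numbered Dox library, and in GFP cells these groups did not overlap. H19 was called in neither auxin comparison by edgeR, in fits that held no replicate term. Against untreated it was called lower with Dox+Auxin in SPOC cells, a call lost without any 1 of 21 of the 27 libraries. The lines did not overlap in any treatment, and SPOC replicates 3 and 5 were the lowest of their groups. The difference was 1.06 (SE 0.27, adjusted p = 0.0157) untreated, 1.15 (SE 0.27, adjusted p = 0.00871) with Dox and 1.06 (SE 0.28, adjusted p = 0.00751) with Dox+Auxin, and the first was lost without GFP untreated replicate 2 (adjusted p = 0.0577). Its CAST share was 43.6, 42.7, 41.2 and 43.3% untreated, 43.0, 42.0, 43.1 and 42.7% with Dox and 42.0, 37.0, 40.5 and 42.9% with Dox+Auxin in GFP cells. SPOC libraries had 46.3, 47.7, 47.8, 46.9 and 46.4% untreated, 48.1, 46.4, 46.1, 47.1 and 48.2% with Dox and 46.8, 46.5, 48.4, 48.4 and 47.8% with Dox+Auxin, all above the GFP libraries. The log2 ratio differed by -0.25 (SE 0.047, adjusted p = 0.00082), -0.26 (SE 0.052, adjusted p = 0.000214) and -0.40 (SE 0.059, adjusted p = 2.09e-07) in the same order, and the first was lost with limma (adjusted p = 0.0683).

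Between the untreated lines 7 of 45 levels were called (15.6%, against 11.6%), with H19 and Dio3 higher (5.79% of all genes were) and Ascl2, Grb10, Meg3, Rian and Mirg lower (5.77%) in SPOC cells. The count was 4 without GFP untreated replicate 2, and 7 without SPOC untreated replicate 2. The call of Dio3 was lost without SPOC untreated replicate 4 or 5 or GFP untreated replicate 1 or 2, that of Meg3 without SPOC untreated replicate 1 or 5 or GFP untreated replicate 1, and that of Grb10 without GFP untreated replicate 2 (adjusted p up to 0.0819, 0.0850 and 0.0831). With Dox it was 8 (17.8%, against 10.7%), 3 higher (5.36%) and 5 lower (5.33%), and it was 5 without SPOC Dox replicate 2 or 5 or GFP Dox replicate 1, and 3 without GFP Dox replicate 2. Without SPOC untreated replicate 2 it was 7. With Dox+Auxin it was 16 (35.6%, against 24.6%), 4 higher (11.2%) and 12 lower (13.5%) in SPOC cells. Rian was lower in SPOC cells, with -0.56 (adjusted p = 0.000131) untreated, -0.45 (adjusted p = 0.000442) with Dox and -0.33 (adjusted p = 0.00264) with Dox+Auxin, and Ascl2 was lower with -0.41 (adjusted p = 0.00166), -0.76 (adjusted p = 3.56e-07) and -0.78 (adjusted p = 1.66e-07). In the allelic ratio 1 of 37 was called untreated (H19; 2.7%, against 0.392%), 2 with Dox (H19 and Peg3; 5.41%, against 2.03%) and 4 with Dox+Auxin (H19, Meg3, Rian and Copg2; 10.8%, against 2.79%). The first count was 2 without SPOC Dox replicate 3, SPOC Dox+Auxin replicate 3, GFP untreated replicate 2 or GFP Dox+Auxin replicate 2. The last was 2 without GFP Dox+Auxin replicate 1 or 4: the call of Copg2, at 0.27 (SE 0.073, adjusted p = 0.0145), was lost without either, and that of Meg3, at -0.35 (SE 0.092, adjusted p = 0.0137), without either or without SPOC Dox+Auxin replicate 2, or with limma (adjusted p = 0.104). Copg2, a subunit of the COPI coat, had 57.9, 57.2, 54.3 and 58.7% CAST in GFP and 51.5, 53.5, 52.3, 52.2 and 52.4% in SPOC cells with Dox+Auxin. Rian gave -0.31 (SE 0.057, adjusted p = 0.00117), and Peg3 with Dox -0.22 (SE 0.050, adjusted p = 0.012).

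Of the 45 genes, 10 were called in none of the 9 comparisons of level: Kcnq1ot1, Nnat, Plagl1, Zdbf2, Igf2r, Airn, Magel2, Ube3a, Commd1 and Inpp5f. The matching share of all genes was not counted, so whether 10 is few or many is not known. Igf2r, for example, had 182 ± 13.7 CPM with Dox and 196 ± 23.7 with Dox+Auxin in GFP cells. Airn, the RNA that silences Igf2r in cis, was below 1 CPM, as were Nnat and Magel2. A change too small for this spread cannot be seen. In simulated counts for the auxin comparison of GFP cells, 72% of genes changed 1.5-fold and 82% of those changed 2-fold were recovered. The simulation gave all genes the same dispersion and changed few of them, so these rates need not hold for the genes named here.

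Genes that maintain or reset imprints were measured in the same libraries. Of 12 maintenance genes, 1 rose and 7 fell in the auxin comparison of GFP cells (of all genes, 24.7% rose and 22.9% fell), with a median of -0.11 on the log2 scale. In SPOC cells 0 rose and 2 fell (of all genes, 16.6% and 15.4%), with a median of 0.0072. Zfp57, the zinc finger protein that binds methylated imprints, gave -0.43 (SE 0.10, adjusted p = 0.00101) and -0.16 (SE 0.088, adjusted p = 0.179). Trim28, its corepressor, changed by -0.28 (SE 0.028, adjusted p = 1.59e-09) and -0.14 (SE 0.025, adjusted p = 5.52e-05), and Uhrf1, which brings DNMT1 to newly copied DNA, by -0.38 (SE 0.062, adjusted p = 1.84e-05) and -0.23 (SE 0.056, adjusted p = 0.00225). Dnmt1 itself gave -0.069 (SE 0.037, adjusted p = 0.121) and 0.067 (SE 0.033, adjusted p = 0.121), and Dppa3, which protects maternal imprints, 0.003 (SE 0.19, adjusted p = 0.991) and 0.18 (SE 0.17, adjusted p = 0.442). Of 8 genes that set or remove DNA methylation, 2 rose and 3 fell in GFP cells and 1 rose and 2 fell in SPOC cells.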

How the data were processed

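RNA of 27 libraries in 6 groups was analysed. Per the submitters' processing notes, which give no role or order, the tools were featureCounts, DESeq2 1.18.1 (use not stated), STAR 2.5.3a, Trim Galore 0.4.4 and Picard 2.18.2, on build mm10. Annotation, strand setting and allele assignment: not given in the sources used here. Per the file headers, the authors deposited raw read counts, allelic counts and RPKM; the deposited RPKM were off their usual scale and were not used. Gene names came from GENCODE M21 (53620 of 53801 IDs).

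Levels were tested with edgeR 4.0.16 (R 4.3.3; TMM, filterByExpr, robust quasi-likelihood, 1 term per group, 27 libraries) and allelic ratios with edgeR with a term per library and allele by group, for genes with a mean of 20 or more allelic reads. A call is a Benjamini-Hochberg adjusted p under 0.05 over all genes tested. CPM here are total or allelic counts scaled to the library's total counts, and per-allele levels were tested with edgeR after the shares had been seen, with total library sizes. Values by library are given for members past the 80% or 20% bounds, with an allelic call, or among the 10 largest called level changes within lines at a mean of 1 CPM or more, and other members were named by call or role. Members and lists were chosen with earlier results of these data known. Replicates are called biological in the design text, which speaks of 4, and whether they were separate cultures was not tested. The lowest chi-square per gene between replicates was 1.76 (SPOC Dox+Auxin replicates 1 and 2), so none counted as duplicates. Alternatives were DESeq2 1.42.0 size factors and Wald test, no filter, limma 3.58.1, other allelic minimums, own scaling per allele, column names, a replicate block and leaving out each library. Steps were tested on simulated counts, with the same spread setting for all genes and few genes changed, which differs from the data. For GFP Dox+Auxin against Dox (12754 genes) a change of 10 points in allelic share was recovered for 59.7% of genes. A change of 20 points was recovered for 89.4%, with 4 of 107 calls false. Replicate numbers met the rule for pairing (each correlation above 0.1) in 1 of 6 pairs of groups, GFP untreated and Dox+Auxin. In 21 of 27 same-numbered pairs of libraries the best match had the same number, and the main fits held no replicate term.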

Additional observations from a re-analysis of the deposited data

Results flagged for a closer look

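In groups of 4 or 5 libraries, 8 of 228 tests found a library far from the rest by Dixon's criterion, which flags about 1 group in 20 by chance. In SPOC Dox+Auxin replicate 3 the Peg3 CAST share was 39.7% (others 42.2 to 43.1%) and Rian was at 184 CPM (others 149 to 155). In GFP Dox+Auxin replicate 2 Cdkn1c was at 7.07 CPM (others 6.41 to 6.51). The CAST share of Peg10 was 49.9% in SPOC Dox+Auxin replicate 4 (others 46.1 to 47.1%), and that of Ndn 49.0% in the same library (others 33.3 to 35.4%). The CAST share of Sgce was 61.5% in SPOC untreated replicate 1 (others 41.9 to 46.1%). Plagl1 had a CAST share of 36.1% in GFP untreated replicate 2 (others 37.7 to 37.9%) and 35.5% in SPOC Dox+Auxin replicate 5 (others 38.4 to 39.1%).

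The change in level from Dox to Dox+Auxin differed between the lines, in edgeR's interaction term (SPOC minus GFP, log2), for Dio3 by 1.21 (SE 0.30, adjusted p = 0.0129), Impact by -0.34 (SE 0.066, adjusted p = 0.00151), Ndn by -0.44 (SE 0.11, adjusted p = 0.00981) and Cd81 by -0.18 (SE 0.059, adjusted p = 0.0495). These are 4 of 45 genes (8.89%), close to the 8.14% of all genes. The Cd81 call was lost without any 1 of 18 of the 27 libraries (adjusted p up to 0.0965). It was also lost with no filter on low counts (adjusted p = 0.0663).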

How the results depend on the processing

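With a replicate block, the counts of called levels were 19 for GFP Dox against untreated, 12 for SPOC Dox against untreated, 16 and 15 between the lines untreated and with Dox, and 12 for the interaction; for allelic ratios they were 2, 1, 8 (SPOC Dox+Auxin against untreated) and 3 (lines untreated). The block ended none of the calls of single genes (144 levels, 33 ratios and 13 levels of an allele), nor moved the other counts by over 1.5 times. The shares of all genes called with the block are not given here. Over the group pairs, same-numbered libraries correlated by -0.12 to 0.46 in their deviations, and in 21 of 27 such pairs the best match had the same number. Of 144 called levels of single genes, 17 were lost with no filter on low counts, 4 with DESeq2 size factors and 0 with the DESeq2 Wald test. The DESeq2 Wald test called 5 levels for SPOC Dox against untreated, and limma 0 ratios between the untreated lines. Taken by column names, the allelic pairs gave 0 calls in all 8 comparisons that had any, and reversed H19 between untreated lines (0.24), Peg3 in GFP Dox+Auxin against untreated (0.12) and Dox (0.15) and between lines with Dox (0.081), Mirg (-0.043) and Cd81 (0.0046) in GFP Dox+Auxin against Dox, and Plagl1 in GFP Dox (-0.076) and Dox+Auxin against Dox (0.071); this alternative mixes libraries of different groups.

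Leaving out each replicate, called levels ranged from 5 to 10, 24 to 27 and 22 to 27 in the GFP line (Dox and Dox+Auxin against untreated, Dox+Auxin against Dox), 1 to 4, 18 to 24 and 21 to 25 in the SPOC line, 4 to 10, 3 to 9 and 13 to 18 between lines, and 3 to 7 for the interaction. Ratios ranged from 1 to 3, 6 to 8 and 8 to 9, from 0 to 0, 4 to 6 and 5 to 7, and from 1 to 2, 2 to 3 and 2 to 4 in the same order, and 6 genes passed the share bounds in each. Counts of Dio3 and Ascl2 limit their shares.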

Other observations

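Untreated levels per length (CPM per kilobase of exon, mean over the untreated libraries of both lines) spread widely over the imprinted genes. Impact was at 53.2 over both lines. Besides those given above by line, Plagl1 was at 26.3, Mcts2 at 23.8, Mest at 23.3 and Igf2r at 20.6. Kcnq1ot1 was at 0.088, Airn at 0.055, Magel2 at 0.045 and Igf2 at 0.037. The mean over all libraries was at least 1 CPM for 40 of the 46. Of the 46, 33 overlap another annotated gene, among them Snhg14 with 213 and Sfmbt2 with 120, so their counts depend on how such reads were assigned.

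Dnmt3b, the methylase that sets new DNA methylation, fell in the auxin comparison, with a log2 change of -1.21 (SE 0.054, adjusted p = 2.56e-16) in GFP cells and -0.77 (SE 0.048, adjusted p = 1.16e-12) in SPOC cells (edgeR). Kdm1b, a histone demethylase needed for maternal imprints in the egg, rose by 0.24 (SE 0.049, adjusted p = 0.000142) and 0.29 (SE 0.044, adjusted p = 5.85e-06). Both were named after their values were seen.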
